A study of Mus musculus with 16 samples.

Results

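T cells recognise antigen through a receptor of 2 variable chains. Each chain is assembled in the developing lymphocyte by joining a V segment, in some chains a D segment, and a J segment, and the transcript is then spliced to a constant gene. Most T cells carry an alpha chain (Trav, Traj, Trac) and a beta chain (Trbv, Trbj, Trbc). A smaller lineage carries a gamma chain (Trgv, Trgc) and a delta chain (Trdv, Trdc), and in mice these gamma-delta T cells are known as residents of skin, mucosa and fat. The delta locus lies inside the alpha locus, and some V segments, with names that hold -dv, serve both chains. The RNA of these segments was followed in the iWAT, the inguinal white fat depot that lies under the skin.

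The segments were chosen by their symbol (Trav, Trbv, Trgv, Trdv, Traj, Trbj, Trac, Trbc, Trgc or Trdc) and by their measured total, a sum of 10 or more counts over the 16 libraries. Of 258 genes with such a symbol, 162 met the limit, out of 54752 gene IDs in all, while 61 had 1 to 9 counts and 35 had none. There were 105 Trav, 4 Traj, 1 Trac, 24 Trbv, 14 Trbj and 2 Trbc genes. On the gamma-delta side there were 3 Trgv, 4 Trgc, 4 Trdv and 1 Trdc genes. Through their RefSeq names 6 gamma genes entered, since GENCODE lists them under Tcrg, and with GENCODE symbols alone there were 156 segments. For sums, 140 segments counted as alpha-beta and 12 as gamma-delta, and the 10 with -dv names were kept apart. Just inside the limit were Trav3-4 with 10 counts and Trav9d-2 with 12. Just outside were Trav1, Trav13d-4, Trgv6, Traj24 and Traj37, with 9 counts each.

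The libraries came from C57BL/6 mice (C57BL/6J in the study's methods) labelled female and 90 days old, 4 for each of 4 genotypes. WT mice carried neither mutation, and Lepob/+ mice carried 1 ob allele of Lep, the gene of the adipocyte hormone leptin. SOD1G93A mice carried a mutant human SOD1 transgene at high copy number under the human SOD1 promoter, a model of amyotrophic lateral sclerosis, and SOD1G93A-Lepob/+ mice, from Lepob/+ mothers and SOD1G93A fathers, carried both. Both are germline changes and are not restricted to fat or to lymphocytes. The study compared the genotypes to find what leptin haploinsufficiency changes in the fat of SOD1G93A females.

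Total counts per library were 36795376 to 61886313. Adipocyte transcripts were present in all 16 libraries, where 8 marker genes summed to 10890 to 24280 CPM (counts per 1000000 of a library's TMM-scaled total). The library labelled SOD1G93A-Lepob/+ replicate 3 had 0 Xist counts and 1756 counts of 4 Y-linked genes, against its female label. Lepob/+ replicate 4 held skeletal muscle transcripts, with Ckm, the muscle creatine kinase, at 26620 CPM. The comparisons between genotypes were therefore also made without these 2 libraries.

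Alpha-beta segments were abundant in 6 libraries and scarce in 10, and the split ran through 3 of the 4 genotypes. In WT the alpha-beta sum was 401.5, 281, 10.9 and 12.1 CPM in replicates 1 to 4. In Lepob/+ it was 5.33, 4.23, 462.5 and 6.46 CPM. In SOD1G93A it was 411, 621, 6.04 and 334 CPM, and in SOD1G93A-Lepob/+ it was 5.67, 6.77, 3.79 and 6.095 CPM. WT replicates 1 and 2, Lepob/+ replicate 3 and SOD1G93A replicates 1, 2 and 4 were thus high, and all 4 double mutant libraries were low. The double mutant mean was 5.58 ± 1.28 CPM, against 343 ± 255 for SOD1G93A, 119.6 ± 229 for Lepob/+ and 176 ± 197 for WT (SD, n = 4). In bulk tissue, fewer T cells and less receptor RNA per cell cannot be told apart.

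Gamma-delta segments followed the same split over a smaller range. Their sum was 11.04, 9.42, 1.45 and 3.70 CPM in WT and 2.11, 1.32, 15.9 and 1.40 CPM in Lepob/+. It was 12.2, 19.3, 1.985 and 12.2 CPM in SOD1G93A and 0.930, 1.55, 2.15 and 1.38 CPM in SOD1G93A-Lepob/+. The 6 libraries high in alpha-beta segments all lay above the other 10 here too. The ratio of the median of these 6 libraries to the median of the 10 was 66.9 for the alpha-beta sum and 8.15 for the gamma-delta sum, with no test since the segments were chosen with their values known.

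**Figure D1:**
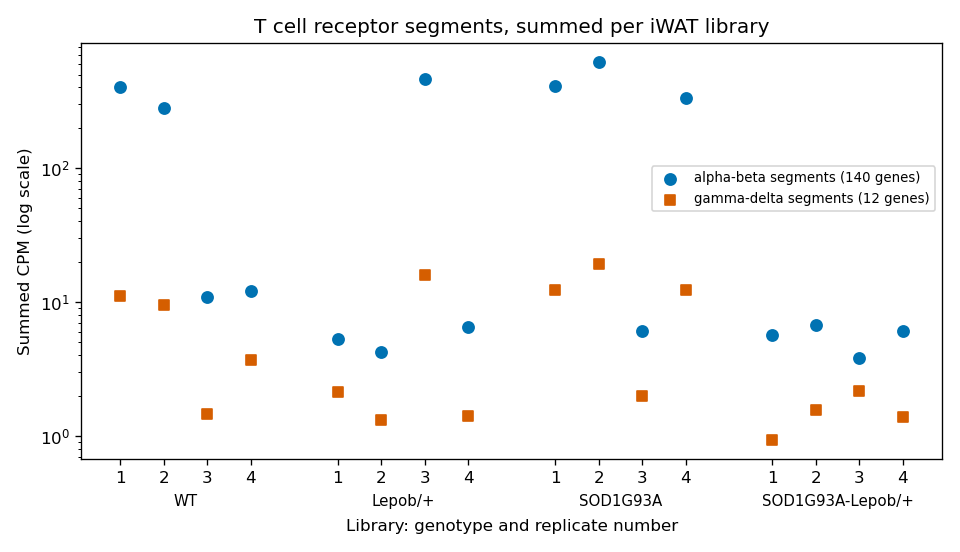
Summed CPM (log scale) of the 140 alpha-beta and the 12 gamma-delta segments in each of the 16 libraries, ordered by genotype and replicate number; each point is 1 library. Alpha-beta points are at 281 to 621 CPM in 6 libraries and at 3.79 to 12.1 CPM in the other 10, and gamma-delta points move the same way over a narrower range.

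The gamma-delta share (gamma-delta percent), that is the gamma-delta counts as a percent of alpha-beta plus gamma-delta counts, was low where receptor counts were high. It was 2.68 to 3.53% in the 6 libraries, each with 12352 to 27490 alpha-beta counts, and 11.7 to 36.3% in the other 10, with 167 to 457. In the double mutants it was 14.1% (95% Wilson interval 10.6 to 18.5%), 18.6% (14.8 to 23.15%), 36.3% (30.7 to 42.2%) and 18.4% (14.2 to 23.5%). The highest of these was the library with Y-linked counts. SOD1G93A replicate 3, the low library of its genotype, had 24.7% (21.0 to 28.85%), while the other 3 SOD1G93A libraries had 2.89, 3.02 and 3.53%. The double mutant mean was 21.85 ± 9.833%, against 8.54 ± 10.8% for SOD1G93A, 18.3 ± 10.9% for Lepob/+ and 10.3 ± 9.711% for WT (SD, n = 4). The libraries of every pair of genotypes overlapped. Intervals cover counting error only.

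**Figure D2:**
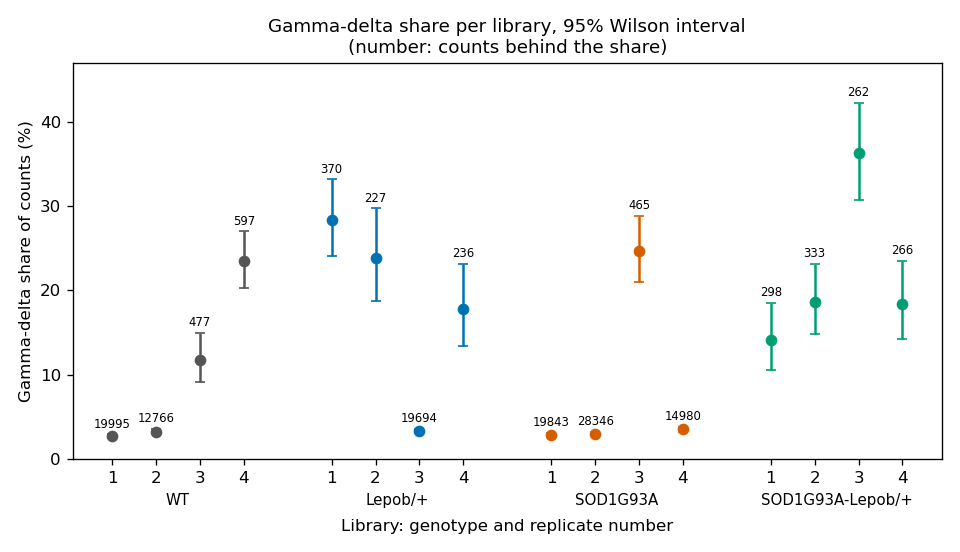
Gamma-delta share of T cell receptor counts (%) in each library with its 95% Wilson interval, coloured by genotype; the number above each point is the alpha-beta plus gamma-delta count. The 6 libraries rich in receptor counts sit at 2.68 to 3.53% and the other 10 at 11.7 to 36.3%, with wider intervals.

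Gene length and Trdv4 set the level of the share but not the order of these sets of libraries. Counted per kb of exon over the constant genes alone, the share was 1.67 to 2.24% in the 6 libraries and 3.74 to 15.7% in the 10, where Trdc, with 3865 exonic bases against 935 for Trac, weighs less. Without Trdv4 the ranges were 2.63 to 3.47% and 9.06 to 24.4%. In each of the 6 alternatives to the share, all 10 libraries lay above all 6. These sets of libraries were made on Trbv counts, which belong to the alpha-beta counts of the share or vary with them. The order is therefore largely set by the division, and the alternatives cannot test it.

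Constant genes held most of the receptor counts. Trac, the constant gene of the alpha chain (chr14:54220521-54224206, GRCm38), had 4534, 2932, 116 and 110 counts in WT and 57, 36, 4570 and 63 in Lepob/+. It had 4203, 6739, 131 and 3311 counts in SOD1G93A and 76, 57, 65 and 56 in SOD1G93A-Lepob/+. In CPM, the 4 double mutant libraries (1.42 to 1.68) lay below the 4 SOD1G93A libraries (2.26 to 152). This separation was shown by 16 of 90 segments tested and by 3.6% of all genes tested. The double mutant libraries overlapped those of Lepob/+ (0.880 to 111). They lay below those of WT (2.91 to 93.55), for which no share of all genes is given. Trbc1 and Trbc2, the paired constant genes of the beta chain (chr6:41538218-41539881 and chr6:41546730-41548352), have nearly the same coding sequence, so that the division of reads between them is uncertain. Trbc2 ran from 4149 to 8879 counts in the 6 rich libraries and from 49 to 169 in the other 10. Trbc1 ran from 2745 to 5772 and from 29 to 108. Trbc1 made up 39.2 to 41.1% of both in the rich libraries and 33.3 to 55.05% in the others, where the intervals were wide.

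Trdc, the constant gene of the delta chain (chr14:54142851-54148868), had 212, 190, 16 and 49 counts in WT and 38, 20, 275 and 34 in Lepob/+. It had 283, 391, 42 and 183 counts in SOD1G93A and 10, 18, 29 and 16 in SOD1G93A-Lepob/+. The rich libraries were again above all the others, with a ratio of medians of 9.08 in CPM, against 56.2 for Trac. Trdc overlaps Trdv5 and an unnamed gene model, so that its counts may be split. The gamma constant genes lie on chromosome 13, and Trgc1, Trgc2 and Trgc3 are close copies of each other. Trgc1 had 43 to 119 counts in the 6 libraries and 0 to 19 in the 10, Trgc2 had 69 to 126 and 0 to 19, and Trgc4 had 41 to 128 and 0 to 13. Trgc3 had 13 counts in all, none of them in the 10.

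Per kb of exon, which allows levels of different genes to be set side by side, the beta constant genes were at 219.9 to 464 CPM per kb in the 6 libraries and Trac at 71.4 to 163. In the same libraries Trgc genes summed to 3.865 to 8.42 CPM per kb and Trdc stood at 1.09 to 2.285. In the 10 poor libraries the beta constant genes were at 2.55 to 10.3, Trac at 0.941 to 3.20, Trgc genes at 0.0721 to 1.385 and Trdc at 0.0573 to 0.335 CPM per kb. The order of the 4 chains by median was the same in both sets of libraries.

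Trdv4, the V segment of the delta chain that the older naming calls V delta 1 and that is known from gamma-delta cells of skin and other tissues, departed from the pattern. The last 150 of the 345 bases of its coding sequence, from the GENCODE M21 transcripts, are shown because its counts carry this exception. Capitals run from the last in-frame cysteine codon, the germline start of the third hypervariable loop (CDR3), to the end of the segment (chr14:54074905-54075515, GRCm38, plus strand).
Trdv4: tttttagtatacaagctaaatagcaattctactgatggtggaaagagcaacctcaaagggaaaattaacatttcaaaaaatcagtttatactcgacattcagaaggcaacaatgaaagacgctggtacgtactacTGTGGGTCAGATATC

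Trdv4 had 9, 22, 12 and 42 counts in WT and 40, 21, 27 and 6 in Lepob/+. It had 11, 11, 42 and 10 counts in SOD1G93A and 9, 35, 41 and 13 in SOD1G93A-Lepob/+. The 4 genotypes overlapped, and the rich libraries were not the high ones: the 10 poor libraries held 261 Trdv4 counts and the 6 rich ones 90, while all Trbv segments together had 277 and 14739. Apart from Traj44, with 13 counts in all, Trdv4 was the only one of the 162 segments with more counts in the 10 libraries than in the 6. Its double mutant mean was 0.592 ± 0.365 CPM, against 0.360 ± 0.244 for SOD1G93A, 0.543 ± 0.258 for Lepob/+ and 0.527 ± 0.410 for WT (SD, n = 4). Trdv4 exceeded Trdc in 4 of the 10 poor libraries and in 0 of the 6 rich ones. Per kb it stood at 0.449 to 2.50 CPM in the poor libraries, above the 0.0573 to 0.335 of Trdc.

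**Figure D3:**
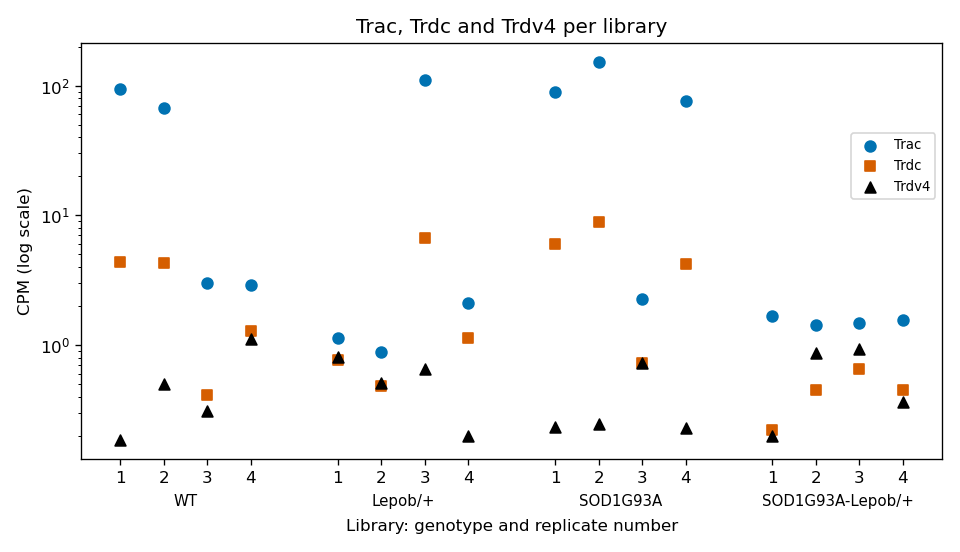
CPM (log scale) of Trac, Trdc and Trdv4 in each of the 16 libraries, ordered by genotype and replicate number; each point is 1 library. Trac and Trdc are high in the same 6 libraries, while Trdv4 stays between 0.186 and 1.11 CPM and meets or passes Trdc in several of the others.

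The other delta segments followed the split. Trdv2-2, Trdv1 and Trdv5 had 60, 43 and 22 counts in all, of which the 10 poor libraries held 4, all of Trdv2-2. Trdv4 was thus 94.6% or more of the Trdv counts in the poor libraries and 19.0 to 64.7% in the rich ones. Trgv6, whose gamma chain is known to pair with V delta 1 in resident gamma-delta cells, had 9 counts, 0 of them in the 10 poor libraries, which with the 3-count limit allows up to 3 counts over these libraries. Trdv4 lies within an antisense gene model that had 0 counts, and whether counting used strand is not stated in the sources used here.

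Gamma V segments were found almost only in the rich libraries. Trgv2 had 120 counts, Trgv4 55 and Trgv1 34, and 207 of these 209 lay in the 6 libraries. Trgv2, the leading segment, is shown by its last 150 bases with the same use of capitals (chr13:19336573-19337167, GRCm38, minus strand).
Trgv2: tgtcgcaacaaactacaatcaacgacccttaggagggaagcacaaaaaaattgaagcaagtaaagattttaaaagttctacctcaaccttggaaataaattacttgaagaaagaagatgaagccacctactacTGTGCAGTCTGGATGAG
Its counts were 13 and 17 in WT replicates 1 and 2, 12 in Lepob/+ replicate 3, and 13, 33 and 32 in SOD1G93A replicates 1, 2 and 4. The 10 poor libraries had 0 Trgv2 counts although they held 221 counts of Trgc genes.

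Beta V segments gave the broadest view of the alpha-beta repertoire. Each of the 6 rich libraries had 1588 to 3820 Trbv counts spread over 23 or 24 of the 24 segments. Trbv13-2, known from the invariant natural killer T cell receptor and from many conventional receptors, led by median share. The end of its sequence is given as that of the most used segment (chr6:41121396-41121832, GRCm38, plus strand).
Trbv13-2: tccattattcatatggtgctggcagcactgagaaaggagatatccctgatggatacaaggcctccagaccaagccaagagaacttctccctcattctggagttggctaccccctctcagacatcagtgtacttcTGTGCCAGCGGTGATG
It took 9.66 and 10.6% of Trbv counts in WT replicates 1 and 2, 8.40% in Lepob/+ replicate 3, and 10.2, 9.97 and 10.01% in SOD1G93A replicates 1, 2 and 4. The 95% Wilson intervals of these 6 values overlapped, from 7.37 to 12.3% in all. Next by median share were Trbv3 (8.99%), Trbv16 (7.81%), Trbv13-1 (7.39%) and Trbv1 (6.94%).

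Some segments varied between libraries by more than counting allows. Trbv13-1 was at 5.23 and 6.06% in the WT libraries and at 6.99 to 8.80% in the other 4, whereas Trbv16 was at 8.64 and 10.1% in WT and at 6.48 to 7.95% in the other 4. With 2, 1 and 3 libraries per genotype, this was not tested. Over the 24 segments, the SD between the 6 libraries was 0.890 to 2.58 times the counting SD (median 1.62). It was highest for Trbv13-1 (2.58) and next for Trbv16 (2.29), so the segments named here are the extremes of the 24.

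**Figure D4:**
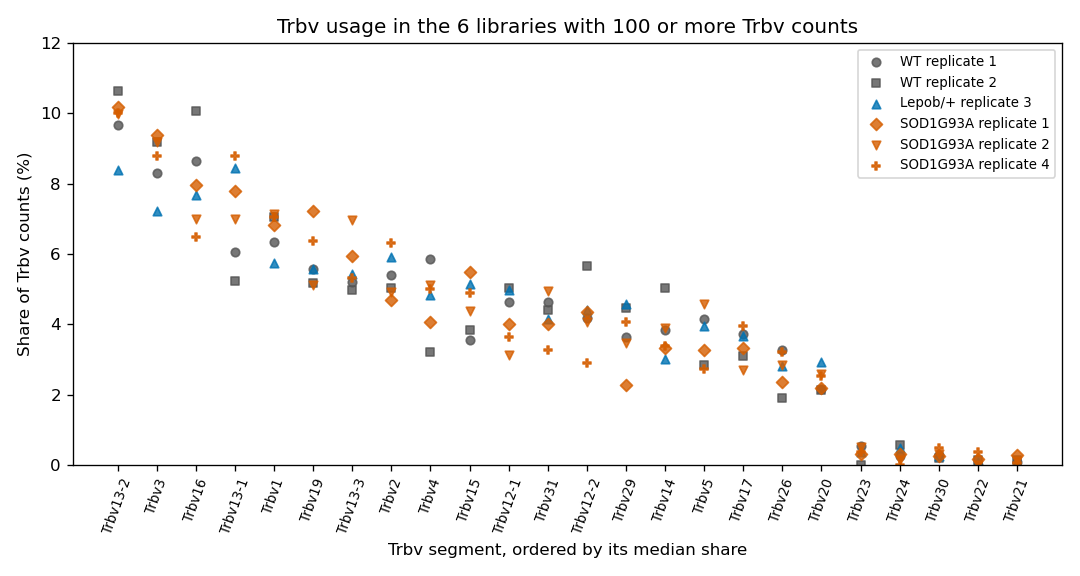
Share of Trbv counts (%) taken by each of the 24 Trbv segments in the 6 libraries with 100 or more Trbv counts, ordered by median share; each marker is 1 library, coloured by genotype. Trbv13-2 leads at 8.40 to 10.6%, and the 5 least used segments, from Trbv23 to Trbv21, have medians of 0.0933 to 0.365%.

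In the 10 poor libraries the Trbv counts were 6 to 64, too few for shares by segment. Of the 24 segments, 2 to 10 had a count in each, and 5 had none in all 10. In WT replicate 3, Trbv16 had 20 of 64 counts and in SOD1G93A-Lepob/+ replicate 2, Trbv3 had 9 of 16. These are the leading segments of their libraries and so are high by choice.

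Beta J segments are 46 to 54 bases long in the annotation, and 14 of them were members. They had 113 to 273 counts in the rich libraries, of which the second cluster (Trbj2) held 49.0 to 62.8%. Trbj2-6, Trbj2-5 and Trbj2-7 led with 119, 113 and 110 counts. Trbj2-6 is annotated as a pseudogene and is printed since it leads its family (chr6:41543598-41543645, GRCm38, plus strand).
Trbj2-6: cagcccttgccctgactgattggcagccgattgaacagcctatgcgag
Alpha J segments were nearly absent, with 37 counts of Traj2, 22 of Traj1, 20 of Traj3 and 13 of Traj44.

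Alpha V segments were many, and none led as Trbv13-2 did among the beta segments. Trav14n-3 (215 counts), Trav16n (206), Trav14n-1 (194), Trav14d-3-dv8 (185) and Trav16 (172) had the most, and in the rich libraries the median shares of Trav counts ran from 0.071% for Trav3-4 to 2.77% for Trav16n. Of the 105 Trav members, 65 had 0 counts in all 10 poor libraries. The alpha locus of this strain holds repeated blocks, and copies of a segment in these blocks carry the letters d and n in their names. In 15 pairs of members the coding sequence of both copies is identical. Trav14d-1 (chr14:52855614-52856166) and Trav14n-1 (chr14:53166626-53167178) are such a pair, and the end of their common sequence is shown because a read inside it has no single place.
Trav14d-1: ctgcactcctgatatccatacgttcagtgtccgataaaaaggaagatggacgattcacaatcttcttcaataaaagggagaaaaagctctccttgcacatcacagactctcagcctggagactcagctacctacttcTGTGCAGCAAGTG

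The larger total divided by the smaller had a median of 1.13 over the 15 pairs, and was highest for Trav9d-2 with 12 counts and Trav9n-2 with 24. Trav14d-1 had 162 counts and Trav14n-1 had 194, Trav12d-2 had 94 and Trav12n-2 had 93, and Trav9d-3 had 99 and Trav9n-3 had 102. Over the 15 pairs, both copies had exactly equal counts in 50 of 107 pair and library values. The squared difference divided by the sum, which averages about 1 where each read is given to 1 copy independently, had a median of 0.214 and lay under 1 in 14 of 15 pairs. Trav11 and Trav11d, the alpha segments of the invariant natural killer T cell receptor, had the same count in each of the 7 libraries with counts and 28 each in all. The study's methods name uniquely mapped reads, and how reads with 2 places entered the table was not tested. The 162 segments are therefore not independent measurements, and Trav sums may hold some reads at both copies.

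**Figure D5:**
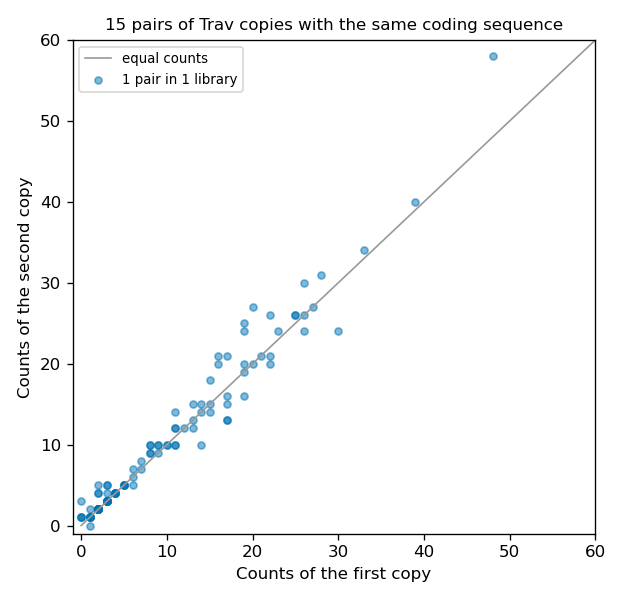
Counts of the first copy against counts of the second copy for 15 pairs of Trav segments with the same coding sequence; each point is 1 pair in 1 library with at least 1 count, and the line marks equal counts. Points lie close to the line, with 50 of 107 on it.

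Receptors of invariant T cells were at the limit of these data. Beside Trav11 and Trav11d, Traj18 of the invariant natural killer T cell receptor had 3 counts and Traj33 of the mucosal-associated invariant T cell receptor had 1. Trav1, of the latter receptor, had 9 counts, 7 of them in SOD1G93A replicate 2. Trbv1, Trbv29, Trbv19 and Trbv13-3, which these cells share with conventional T cells, had 1013, 547, 857 and 863 counts. At this depth neither receptor could be followed by genotype.

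Between SOD1G93A-Lepob/+ and SOD1G93A, receptor segments had lower fitted levels in the double mutant, and the tools differed in how many they called, 0 in edgeR and 72 in DESeq2. Of the 162 segments, 90 passed the filter on low counts, mainly through the rich libraries. None of these libraries was a double mutant, so the shares of segments and of all genes given below do not test the segments as a set. In edgeR's quasi-likelihood test with Benjamini-Hochberg adjustment over 19736 genes, 0 of 90 had an adjusted p under 0.05, as for 0% of all genes tested. At an unadjusted p under 0.05, 87 of 90 were lower and 0 higher, against 12.3% of all genes lower, 4.19% higher and 16.5% in either direction. The log2 difference was -5.70 for Trac (SE 1.81, edgeR adjusted p = 0.261), -5.99 for Trbc2 (SE 1.90) and -5.76 for Trbc1 (SE 1.85), both with the same adjusted p. It was -3.47 for Trdc (SE 0.986, edgeR adjusted p = 0.261) and -4.608 for Trgc2 (SE 1.39, same adjusted p). It was -2.94 for Trgc4 (SE 1.27, edgeR adjusted p = 0.278) and -2.99 for Trgc1 (SE 1.40, edgeR adjusted p = 0.305). None of these differences passed the adjusted threshold in edgeR, and the difference between chains was not tested.

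Trdv4 was the 1 segment of 90 with a higher fitted level in the double mutant, by 0.70 on the log2 scale (SE 0.644, edgeR adjusted p = 0.586). The smallest p-values belonged to Trav6n-7, Trav6-7-dv9, Trav6d-7 and Trdc. Trav6n-7 had 21, 33, 4 and 16 counts in SOD1G93A and 1, 0, 0 and 0 in SOD1G93A-Lepob/+. Trav6-7-dv9 had 16, 29, 4 and 20 counts against 0 in all 4, and Trav6d-7 had 19, 30, 4 and 14 against 1, 0, 0 and 0. The groups did not overlap for these 3, which have similar sequences, and for 16 of the 90 segments in all, beside 3.6% of all genes tested with the 4 double mutant libraries below the 4 SOD1G93A libraries.

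Many segments had no count in the double mutants, where 108 of the 162 were at 0 in all 4 libraries. In WT 2 were at 0 throughout, in Lepob/+ 7 and in SOD1G93A 0. Segments were chosen by their counts summed over all libraries, and 2.97% of these counts lay outside the rich libraries. None of the rich libraries was a double mutant, so the rule itself favours zeros there and few in SOD1G93A. The share of all genes at 0 is not given, and these numbers cannot test a difference between genotypes. For a segment at 0, a fold is only a lower bound, taken against 3 counts over the group. Trbv13-1, with 631 counts in SOD1G93A (3.28 CPM), was at least 180.3-fold lower, Trbv13-3 at least 147-fold and Trbv19 at least 143-fold. Of the 631 counts, the rich SOD1G93A replicates 1, 2 and 4 held 195, 267 and 167. Trbv13-2 had 255, 381, 5 and 190 counts in SOD1G93A and 0, 0, 3 and 0 in the double mutant. Trgv2, with 78 counts in SOD1G93A, all in its rich libraries, was at least 22.3-fold lower. These bounds pool the 4 libraries of a genotype. The poor library SOD1G93A replicate 3 had 0 Trgv2 counts, as the double mutants did. The median over the 90 segments was -6.43 as fitted and -4.55 with segments at 0 set at their bound, beside 5e-04 over all genes.

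DESeq2, the tool of the study, gave another count. Fitted on both genotypes alone, it called 72 of 128 segments with an adjusted p, all lower and Trac, Trbc1, Trbc2, Trdc, Trgc1, Trgc2 and Trgc4 among them, where 6.24% of all genes were called lower and 1.72% higher. Fitted on all libraries it called 14, a count given here without the share of all genes called in that fit. Segments entered mainly through counts in the rich libraries, none of them a double mutant, and are not independent of each other. The share of segments called, set beside that of all genes, is therefore not a test. Leaving out any 1 library, edgeR called 0 segments. Without the library with Y-linked counts and the muscle-rich library together it also called 0, with 67 at an unadjusted p under 0.05. The filter was run again in these fits, and the share of all genes is not given for the 67.

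Against Lepob/+, the double mutant had lower values set by 1 library. In edgeR 0 of 90 segments were called, as for 0% of all genes. At an unadjusted p under 0.05, 20 were lower, beside 6.28% of all genes lower, 1.96% higher and 8.24% in either direction. DESeq2 called 4 on all libraries and 0 on these genotypes alone, counts without a share of all genes beside them. Trac was lower by -4.22 on the log2 scale (SE 1.70, edgeR adjusted p = 0.597) and Trdc by -2.34 (SE 0.951, same adjusted p). Without Lepob/+ replicate 3, the 1 rich library of its genotype, 0 segments remained under an unadjusted p of 0.05 and Trac turned to 0.18. The other 3 Lepob/+ libraries had 36, 57 and 63 Trac counts, in the range of the double mutants. Trdv4 differed by 0.11 (SE 0.639). The smallest p-values were those of Trav6-7-dv9, Trav6n-7, Trbv13-2 and Trbv12-2, each with 5 counts or fewer in all libraries of both groups but Lepob/+ replicate 3.

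Lepob/+ against WT and SOD1G93A against WT showed no segment called by either tool. For DESeq2 the share of all genes called in these comparisons is not given. In edgeR 0 of 90 segments were called in both, as for 0% of all genes, and 0 reached an unadjusted p under 0.05, beside 4.37% of all genes (3.56% higher, 0.811% lower) in the first and 2.56% (1.64% higher, 0.917% lower) in the second. Trac differed by -0.53 (SE 1.47) in Lepob/+ and by 0.95 (SE 1.48) in SOD1G93A, and Trdc by -0.20 (SE 0.886) and 0.92 (SE 0.888). These 2 comparisons share the WT libraries. The smallest p among segments was 0.484 (edgeR, unadjusted) for Trav12n-3 in the first, followed by Trav13d-2, Trav12-2 and Trav8d-1. In the second, it was 0.212 (edgeR, unadjusted) for Trav16d-dv11, followed by Trav12-3, Trav13-1 and Trdc. Without Lepob/+ replicate 3, 44 segments had an unadjusted p under 0.05 in the first comparison and Trac stood at -4.94, with 0 called. The filter was run again in this fit, and its share of all genes is not given.

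The interaction of both mutations asks whether the double mutant departs from the sum of both single effects. In edgeR 0 of 90 segments were called, as for 0% of all genes. At an unadjusted p under 0.05, 26 were lower, beside 5.82% of all genes lower, 2.16% higher and 7.98% in either direction. DESeq2 called 3, a count without a share of all genes beside it. Trac had an interaction of -5.17 (SE 2.22, edgeR adjusted p = 0.564), Trdc of -3.27 (SE 1.30, same adjusted p) and Trdv4 of 0.64 (SE 0.908, adjusted p = 0.784). The smallest p-values were those of Trav6n-7, Trav6-7-dv9, Trav6d-7 and Trbv13-1. Leaving out 1 library, with the filter run again, moved the count at an unadjusted p under 0.05 from 26 to between 1 and 58. The shares of all genes in these fits are not given.

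Genes of the T cell that carries these receptors moved with them. The CD3 chains, which bring the receptor to the surface (Cd3g, Cd3e, Cd3d, Cd247), summed to 172 to 347 CPM in the 6 rich libraries and to 5.475 to 11.8 in the other 10, and 4 of 4 genes were higher in all 6. Of all genes tested, 11.2% were higher in all 6 than in any of the 10, a split made on receptor counts. The coreceptors Cd8a (78.2 to 135 against 0.196 to 1.86 CPM), Cd4 (60.9 to 127 against 1.20 to 5.12) and Cd8b1 were separated too. So were 14 of 15 genes of receptor signalling, among them Lck (108 to 222 against 1.995 to 5.02 CPM), the kinase that starts it. In edgeR, 0 of the 4 CD3, 3 coreceptor and 15 signalling genes were called in any of the 5 comparisons. In the double mutant against SOD1G93A, 4, 3 and 14 of them were lower at an unadjusted p under 0.05, beside 12.3% of all genes.

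Genes of the gamma-delta and innate-like T cell programme were mixed. Of 14 genes, 6 were higher in all 6 rich libraries than in any other, but the leading ones in counts, Maf (58.2 to 123 against 83.8 to 236 CPM), Zbtb16 and Il1r1, overlapped, and adipose and stromal cells are known to express several of them. Il17a, the cytokine of one resident gamma-delta lineage and named after its values were seen, had 0 counts in all 16 libraries. Of the genes of V(D)J recombination, Rag2 was at 0 throughout and Rag1 reached 0.113 CPM. Dntt, which adds bases at the joins, was at 1.94 to 3.21 CPM in the rich libraries and 0 to 0.806 in the others.

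Genes of other lymph node cells were split in the same way. The inguinal fat pad is known to surround a lymph node. Glycam1, a product of its high endothelial venules, was at 203 to 614 CPM in the 6 libraries and at 0 to 0.0603 in the 10, and Ccl21a, a chemokine of lymph node stroma, at 205 to 368 and 0.0529 to 3.10. Of 10 genes of this list, 6 were separated, and the list summed to 587 to 1148 against 22.6 to 242 CPM. Among those that overlapped, Lyve1 was at 23.4 to 132.5 against 17.1 to 206.4 CPM, with the lower median in the 6. Cxcl13 was at 36.5 to 61.85 against 2.35 to 45.4 CPM, with the higher median in the 6. The sum of the list ran from 102 to 157 CPM over the double mutant libraries, against 76.6 to 1148 for SOD1G93A, 75.2 to 1067 for Lepob/+ and 22.6 to 724 for WT. In the poor libraries, where Glycam1 and Ccl21a were at most 0.0603 and 3.10 CPM, most of this sum came from other genes of the list. The part of lymph node cells in the receptor counts was not tested. Of 12 B cell genes, 11 were separated, with Cd79a at 119 to 343 against 0.566 to 3.83 CPM, and of 8 NK and cytotoxic genes 5. Of the macrophage, adipocyte, skeletal muscle, epidermis and mammary epithelium lists, 0 genes were higher in all 6. In the other direction Lep, named after its values were seen, was at 181 to 360.3 CPM in the 6 libraries and at 447 to 1843 in the 10, a separation that 4.23% of all genes tested showed.

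With the level of the lymph node list as a covariate in edgeR, the segments under an unadjusted p of 0.05 went from 87 to 8 of 90 in the double mutant against SOD1G93A, with 0 called. Trac then stood at -0.81 and Trdc at -0.98, in place of -5.70 and -3.47. Trdv4 stood at 0.21, in place of 0.70. Of all genes, 4.05% were under that p with the covariate and 16.5% without it. The list was chosen with these results known and is high in the same 6 libraries as the receptor counts, so that in this fit both cannot be told apart.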

How the data were processed

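RNA was sequenced from the iWAT of 16 mice as paired reads of 100 bases. The authors trimmed reads with fastp, aligned them to mm10 with HISAT2 2.1.0 and deposited featureCounts 2.0.2 read counts per gene, not normalized, from uniquely mapped reads per the study's methods. The strand setting and annotation release are not given in the sources used here, and the library kit is named differently in the labels and the methods. Symbols came from GENCODE M21 and, for 6 gamma genes, RefSeq.

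Genotypes and replicate numbers came from the labels. That these samples are separate animals rests on the labels, so p-values measure the spread between them. CPM were computed from the total counts of the genes that passed the filter named next, times TMM factors. Genes were tested with edgeR 4.0.16 (R 4.3.3; limma 3.58.1) on all 16 libraries, after a filter (minimum count 10, minimum total 15) and TMM scaling, by the robust quasi-likelihood F test, two-sided, with Benjamini-Hochberg adjustment at 0.05. DESeq2 1.42.0, other filters and scalings, a replicate block, a lymph node covariate and leaving out libraries were alternatives. The edgeR steps were tested on simulated data. No 2 libraries of the same genotype were duplicates (24 pairs), and pairs between genotypes were not checked for this.

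The rich libraries are those with 100 or more Trbv counts, a division made on the measured receptor counts, so no test was run across it. The segments and gene lists were chosen with earlier results of these data known. Named were the constant genes, Trgv and Trdv members, segments of invariant T cell receptors, the 5 Trav, 5 Trbv, 5 Traj and 3 Trbj members with the most counts, the 4 with the smallest p in each comparison, and up to 4 genes per list. Examples of copies, other sequences and further list genes were chosen after their values were seen.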

Additional observations from a re-analysis of the deposited data

Results flagged for a closer look

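Of 44 genotype groups of 4 libraries tested with Dixon's criterion, 13 held a library far from the others, and most of these were 1 library. The criterion flags about 1 in 20 by chance where groups are independent. These groups are values of the same 16 libraries, many of them parts of the same sums. The 13 can therefore not be set against that rate. Lepob/+ replicate 3 stood apart from the other 3 Lepob/+ libraries in summed CPM of alpha-beta segments, at 462.5 against 4.23 to 6.46, and of gamma-delta segments, at 15.86 against 1.32 to 2.11. It did so in Trac (111 CPM), Trbc1 (102.2 CPM), Trbc2 (151.7 CPM), Trdc (6.68 CPM), Trgc1 (2.79 CPM), Trgc2 (2.94 CPM) and Trgc4 (1.34 CPM). SOD1G93A replicate 3 stood apart in gamma-delta share, at 24.73% against 2.89 to 3.53%, in Trgc1, at 0.0863 CPM against 1.94 to 2.28, and in Trdv4, at 0.725 CPM against 0.231 to 0.248. SOD1G93A-Lepob/+ replicate 3 had Trgc2 at 0.0 CPM, where the other 3 libraries had 0.0999 to 0.112. In the double mutant libraries 3 counts equal 0.0664 to 0.0843 CPM, so this last gap rests on few counts.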

How the results depend on the processing

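The count of called segments was 0 in edgeR under every alternative run. DESeq2 on all libraries called 14 in SOD1G93A-Lepob/+ against SOD1G93A, 4 against Lepob/+ and 3 in the interaction. DESeq2 on the compared genotypes called 72 in the first. The share of all genes is given above for the 72 only, so the 14, 4 and 3 are not set against a rate. The cause of the difference between tools was not tested. The double mutant gamma-delta sum moved to 0.898 CPM with constant genes only and to 0.910 CPM without Trdv4, the latter chosen after seeing the data. Per kb of constant genes, the mean gamma-delta share moved to 6.835% in Lepob/+, 9.605% in SOD1G93A-Lepob/+, 5.54% in WT and 3.93% in SOD1G93A.

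With the lymph node covariate, Trac changed sign in SOD1G93A against WT (-0.22) and in the interaction (0.12), Trgc1 in the double mutant against SOD1G93A (0.30), and Trdv4 against Lepob/+ (-0.215). Without the library with Y-linked counts and the muscle-rich library, Trdc in Lepob/+ against WT stood at 0.013 and Trdv4 in the double mutant against Lepob/+ at -0.45. Leaving out 1 library, Trac ranged from -4.94 to 0.23 and Trdc from -1.73 to 0.15 in Lepob/+ against WT. In the double mutant against Lepob/+, Trac ranged from -4.63 to 0.18 and Trdv4 from -0.19 to 0.40.

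With the replicate block, 70, 3 and 3 segments had an unadjusted p under 0.05 in the double mutant against SOD1G93A, against Lepob/+ and in the interaction, with 0 called, and Trdv4 against Lepob/+ stood at -0.084. The shares of all genes in the fit with the block are not given. Correlations showed no common pairing by replicate number: of 24 pairs with the same number, 5 correlated above 0.1 and 8 below -0.1. With values from -0.694 to 0.52, they cannot exclude that samples of the same number were handled together. Leaving out 1 library gave 63 to 98 segments at an unadjusted p under 0.05 in the double mutant against SOD1G93A. The filter was run again in these fits, so more than the 90 segments of the main fit could pass it. Their shares of all genes are not given. Depth limits all shares in the 10 libraries with 167 to 457 alpha-beta counts.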
